A study of Mus musculus with 6 samples.

Results

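Bone marrow-derived macrophages that had been exposed to lipopolysaccharide (LPS) for 5 h were compared with unstimulated macrophages. The comparison used 4 of the study's 6 arrays, namely the wild-type and the IκBβ-knockout array at 5 h against the wild-type and the knockout array at 0 h, paired by genotype, and covered 7508 genes. It took a gene as changed only when both genotypes moved the same way. The study grew bone marrow cells of C57BL/6J mice, the strain given for every array, into macrophages in medium conditioned by L929 cells, stimulated them with LPS at 1 µg/ml for 0, 1 or 5 h and measured RNA on the Mouse Genome 430A 2.0 array, with 1 array for each genotype and time. The groups were thus wild type without LPS, wild type after 5 h of LPS, knockout without LPS and knockout after 5 h of LPS. The knockout arrays are titled only "IkB", and the series text gives the deleted gene as IkappaB-beta. How the knockout was made, the age of the mice and the number of animals behind an array are not stated in the labels. Signals below are given as wild type, then knockout.

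LPS, a component of the outer membrane of Gram-negative bacteria, is sensed by TLR4 with CD14 and MD-2. The adaptors MyD88 and TRIF then lead to the transcription factors NF-κB and AP-1 and to IRF3, which switch on inflammatory cytokines and interferon β. Secreted interferon acts back on the macrophage through its receptor and induces antiviral genes, so that by some hours after stimulation direct targets, their feedback inhibitors and interferon-induced genes are all in play. IκBβ, encoded by Nfkbib, is one of the proteins that bind NF-κB.

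The targeted gene gave 477 and 30.5 at 0 h and 5007 and 56.1 at 5 h, so the knockout arrays were the low ones at both times. The place of its probes relative to the deletion is not stated in the labels. All 16 macrophage markers lay above the array median on each of the 4 arrays, with summed signals of 174695 and 161041 at 0 h and 171527 and 161929 at 5 h. None of the 16 T and NK cell markers on the array lay above both 0 h medians or both 5 h medians. Xist, the RNA of the inactive X chromosome, gave 52.1 and 5634 at 0 h and 62.1 and 2149 at 5 h, so the genotypes also differed in the sex this RNA marks, and genotype and sex cannot be told apart. With 1 array per genotype and time, the spread used by the test is the disagreement between the genotypes over time, and p-values measure only the spread between these arrays, not that between animals.

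Most of the array became dimmer while its brightest probe sets did not. The array median was 113 and 117 at 0 h and 70.7 and 65.2 at 5 h, whereas the 95th percentile was 3258 and 3215 at 0 h and 3764 and 3806 at 5 h. The mean without the highest and lowest 2% of signals was 500.2 to 500.3 on every array. The median gene changed by −0.53 in wild type and −0.59 in knockout on the log2 scale of the deposited signals. Every change below is therefore log2 of 5 h over 0 h relative to that median gene, and "rose" and "fell" mean called relative to it. A gene whose deposited signal stayed level thus has a change of 0.53 or 0.59. Signals under a floor, 21.9 at 0 h and 15.2 and 14.5 at 5 h in deposited units, were raised to it, and where that happened on 1 side of a comparison the change is a bound, written "at least" or "at most".

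**Figure D1:**
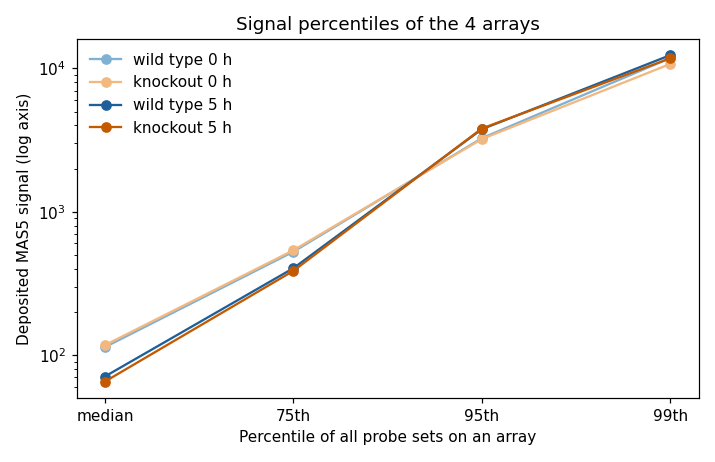
Median, 75th, 95th and 99th percentile (x axis) of the deposited MAS5 signals of all probe sets (y axis, log scale) on the wild-type and knockout arrays at 0 h and 5 h, 1 line per array. The 5 h lines lie below the 0 h lines at the median and at the 75th percentile and above them at the 95th percentile.

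Most measured genes differed between 0 h and 5 h of LPS. By limma, 2459 genes (32.8% of 7508) rose and 2503 (33.3%) fell at an adjusted p under 0.05 with the same direction in both genotypes, 66.1% of genes together. Of these, 1307 (17.4% of all genes) rose and 1249 (16.6%) fell at least 2-fold in both genotypes. At least 8-fold changes in both genotypes numbered 263 upward and 87 downward, and at least 32-fold changes 71 upward and 7 downward. The genotypes moved the same way in 6685 genes (89.0%), with Pearson's r of 0.94 and Spearman's rho of 0.92 across the 7508 genes, which are not independent replicates, and an SD of 0.55 for knockout minus wild type. Leaving out the knockout 0 h array lowered the number of falls to 1662 and that of rises to 1784. Without that array the same-direction rule could not be applied. The split of calls depended on the scaling: 49.6% of calls were rises relative to the median gene, but 26.5% at the deposited scale (1463 rises and 4055 falls) and 39.2% after quantile normalization. Of the 2556 genes changed 2-fold, 2526 were called the same way at the deposited scale and 0 the opposite way. That scale shifts the changes by less than 2-fold, so an opposite call was hardly possible.

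**Figure D2:**
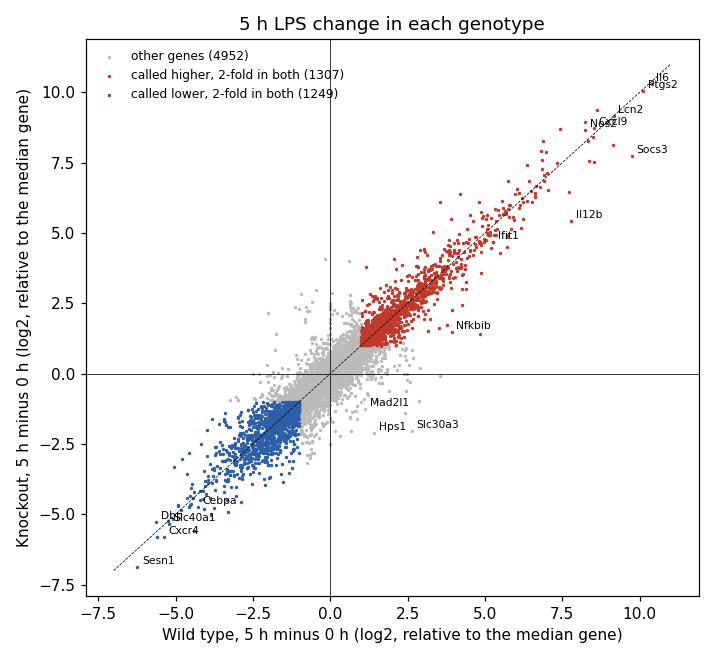
Change from 0 h to 5 h of LPS in wild type (x axis) and knockout (y axis), each as log2 relative to the median gene and 1 point per gene, with the dashed line marking equal changes. The 1307 red genes rose and the 1249 blue genes fell at least 2-fold in both genotypes, and Hps1, Mad2l1 and Slc30a3 lie where the genotypes moved in opposite directions.

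The 20 highest rises included cytokines, chemokines, enzymes, receptors and inhibitors of signalling. Il6, an inflammatory cytokine, gave 4.21 and 2.13 at 0 h and 20267 and 18039.6 at 5 h, a change of at least 10.33 (SE 0.12, limma adjusted p = 0.000252). Ptgs2, the inducible cyclooxygenase that starts prostaglandin synthesis, gave 1.51 and 13.04 at 0 h and 16749 and 15178 at 5 h, a change of at least 10.07 (SE 0.15, limma adjusted p = 0.000252). Both genes were below the floor on the unstimulated arrays and above the 99th percentile of their array at 5 h. Lcn2, a secreted protein that binds bacterial siderophores, gave 32.3 and 34.1 at 0 h and 12738 and 12851 at 5 h, a change of 9.15 (SE 0.17, limma adjusted p = 0.000252). Nos2, the inducible nitric oxide synthase, gave 5.09 and 5.43 at 0 h and 4596 and 5881 at 5 h, a change of at least 8.45 (SE 0.15, limma adjusted p = 0.000252). Ptges, the synthase that follows Ptgs2 in making prostaglandin E2, gave 16.4 and 14.6 at 0 h and 4894 and 4490.0 at 5 h, a change of at least 8.30 (SE 0.16, limma adjusted p = 0.000252). In each of these genes both 5 h signals lay more than 32-fold above both 0 h signals. Genes named here and below for the size of their change were chosen by their 5 h values. The separation of their 0 h and 5 h signals largely follows from that choice and is a description.

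The interleukins among the highest rises differed in their starting level. Il1b gave 72.6 and 122 at 0 h and 18657 and 14788 at 5 h, a change of 8.02 (SE 0.28, limma adjusted p = 0.000278). Il1a gave 6.70 and 0.805 at 0 h and 8452 and 4043 at 5 h, a change of at least 8.62 (SE 0.27, limma adjusted p = 0.000271). Il10, an anti-inflammatory cytokine, gave 77.3 and 56.9 at 0 h and 6215 and 7286 at 5 h, a change of 7.23 (SE 0.21, limma adjusted p = 0.000252). Il1a began below the floor, whereas Il1b and Il10 began above it. At 0 h Il10 lay below both array medians, and Il1b lay above that of the knockout array only. Socs3, an inhibitor of signalling by IL-6 family receptors, gave 22.2 and 85.3 at 0 h and 13205 and 12116 at 5 h, a change of 8.74 (SE 0.55, limma adjusted p = 0.000632). Cd40, a receptor for T cell help, gave 180.1 and 160.4 at 0 h and 14813 and 14199.9 at 5 h, a change of 6.98 (SE 0.23, limma adjusted p = 0.000278). Cxcl9, a chemokine for activated T cells, gave 33.4 and 33.8 at 0 h and 8541 and 9498 at 5 h, a change of 8.63 (SE 0.43, limma adjusted p = 0.000399). No 0 h signal of these genes overlapped a 5 h signal. The other 9 of the 20 highest were Serpinb2, Edn1, Upp1, Slfn4, Dusp2, Ccl12, Il15ra, Ccl7 and Cxcl11.

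The steepest falls included regulators of growth factor and stress signalling. Sesn1, a sestrin that restrains mTORC1, gave 3681 and 3605 at 0 h and 33.8 and 20.6 at 5 h, a change of −6.55 (SE 0.18, limma adjusted p = 0.000252). Cxcr4, the receptor for CXCL12, gave 1677 and 1991 at 0 h and 27.9 and 23.6 at 5 h, a change of −5.60 (SE 0.20, limma adjusted p = 0.000278). Slc40a1, the iron exporter ferroportin, gave 10521 and 9322 at 0 h and 196 and 152 at 5 h, a change of −5.28 (SE 0.11, limma adjusted p = 0.000252). All 3 were well measured at 0 h on both arrays and at least 32-fold lower relative to the median gene at 5 h in both genotypes. Cebpa, a transcription factor of myeloid differentiation, gave 2131 and 1829 at 0 h and 76.7 and 44.9 at 5 h, a change of −4.51 (SE 0.18, limma adjusted p = 0.000307). Dbp, a clock-controlled transcription factor, gave 1082 and 876 at 0 h and 5.91 and 15.1 at 5 h, a change of at most −5.45 (SE 0.19, limma adjusted p = 0.000278). Tsc22d3, the glucocorticoid-induced leucine zipper protein, gave 958 and 1172 at 0 h and 23.5 and 26.8 at 5 h, a change of −4.84 (SE 0.10, limma adjusted p = 0.000252). Dbp ended at or below the floor in wild type, so its fall is a bound, whereas the other falls here ended above it. Trp53inp1, a p53 target, gave 2188 and 2520.5 at 0 h and 66.00 and 65.99 at 5 h, a change of −4.59 (SE 0.11, limma adjusted p = 0.000252). Inpp5d, the lipid phosphatase SHIP1, gave 2100.3 and 2234 at 0 h and 69.2 and 80.4 at 5 h, a change of −4.30 (SE 0.11, limma adjusted p = 0.000252). Both kept signals above the floor at 5 h, with no overlap between times. The others of the 20 lowest were Nfic, Lpin1, Pdxk, Mxd4, Cerk, Zdhhc14, Arrb1, Paqr7, Adcy9, Gtf2i, Tpcn1 and Marveld1, with changes from at most −5.70 to at most −4.34.

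**Figure D3:**
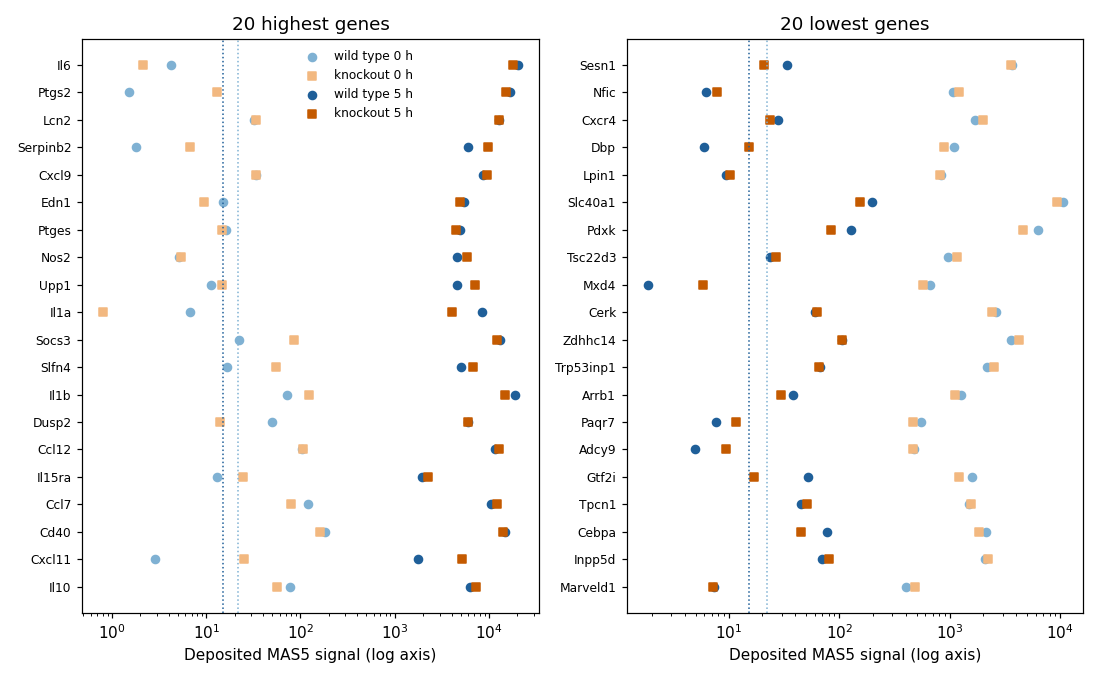
Deposited MAS5 signal (x axis, log scale) of the 20 highest and 20 lowest genes (rows) on each of the 4 arrays, 1 point per array, with dotted lines at the wild-type floors of 21.9 at 0 h and 15.2 at 5 h. The genes were chosen for their 5 h changes, and in every row both 5 h points lie on one side of both 0 h points.

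Sensing components rose more often than they fell, beside 32.8% rises and 33.3% falls over all genes. Of the measured genes of TLR4 sensing and its adaptors, 14 of 22 rose, 4 fell and 4 were not called (median 0.79). Tlr3, the sensor of double-stranded RNA, changed by 3.66, Tlr1 by 2.86, the adaptor Myd88 by 2.60 and Ly96, which encodes MD-2, by 1.93. Cd14, the LPS co-receptor, gave 11290.4 and 10304 at 0 h and 20444 and 17307 at 5 h, a change of 1.36 (SE 0.12, limma adjusted p = 0.00135). Tlr4 itself gave 1206 and 1220.0 at 0 h and 648 and 657 at 5 h, a change of −0.33 (SE 0.10, limma adjusted p = 0.0466), and its call was lost under array-median scaling (limma adjusted p = 0.434) and when any 1 of the 6 arrays was left out (limma adjusted p = 0.10 to 0.276). The kinase Irak1 changed by −1.52 and the adaptor Tab1 by −1.12.

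NF-κB family members and their inhibitors rose almost throughout. Among these genes 22 of 24 rose, 1 fell and 1 was not called (median 2.66), beside 32.8% rises over all genes. Tnfaip3, the deubiquitinase A20 that limits NF-κB signalling, gave 215 and 143 at 0 h and 9824 and 8905 at 5 h, a change of 6.30 (SE 0.20, limma adjusted p = 0.000278). Nfkbiz, an atypical nuclear IκB, gave 791 and 620.1 at 0 h and 10652 and 10225 at 5 h, a change of 4.46 (SE 0.13, limma adjusted p = 0.000255). Rel, the c-Rel subunit, gave 86.8 and 69.4 at 0 h and 961 and 1145 at 5 h, a change of 4.32 (SE 0.19, limma adjusted p = 0.000335). All 5 h signals of these genes exceeded the 0 h signals. Traf1 changed by 6.21, whereas Map3k14, the kinase of the alternative NF-κB pathway, changed by −1.46. The gene targeted in the knockout, Nfkbib, is counted among the rises, although its knockout signal was low at both times. Its mean change therefore joins an intact with a targeted gene. Nfkbib changed by 2.70 (SE 0.63, limma adjusted p = 0.0204), with 3.92 in wild type and 1.47 in knockout, and its call was lost without the wild-type 0 h array (limma adjusted p = 0.0782) and in a fit without the pairing by genotype (0.416).

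Cytokines and chemokines held some of the highest changes, and their counts stand beside 32.8% rises and 33.3% falls over all genes. Of the cytokines 21 of 27 rose, 2 fell and 4 were not called (median 2.99), and of the chemokines 19 of 22 rose, 1 fell and 2 were not called (median 4.86). Of these members, 4 cytokines and 3 chemokines passed the filter only through their 5 h signal, and those above an array median at 0 h numbered 11 cytokines, of which 9 rose, and 14 chemokines, of which 11 rose. Tnf gave 173 and 122 at 0 h and 15715 and 7507 at 5 h, a change of 6.78 (SE 0.24, limma adjusted p = 0.000278). Il12b, the p40 subunit of IL-12 and IL-23, gave 25.1 and 28.8 at 0 h and 3817 and 816 at 5 h, a change of 6.60 (SE 0.65, limma adjusted p = 0.00177). Il16 gave 979 and 1119.9 at 0 h and 67.5 and 70.9 at 5 h, a change of −3.36 (SE 0.13, limma adjusted p = 0.000303). Tnf and Il12b were thus above every 0 h signal at 5 h and Il16 was below. Ccl5, a chemokine for T cells and monocytes, gave 669 and 864 at 0 h and 17571 and 14697 at 5 h, a change of 4.96 (SE 0.19, limma adjusted p = 0.000307). Cxcl10, an interferon-induced chemokine, gave 399.8 and 612 at 0 h and 17043 and 17946 at 5 h, a change of 5.70 (SE 0.21, limma adjusted p = 0.000279). Ccl7 and Ccl12, monocyte chemokines, changed by 7.42 and 7.39. Tgfb1, a suppressive cytokine, was not called (−0.31), nor was the chemokine Ccl6 (−0.03).

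Receptors split between rises and falls, beside 32.8% rises and 33.3% falls over all genes. Of the cytokine receptors 17 of 31 rose, 8 fell and 6 were not called (median 0.98). Among the 28 above an array median at 0 h 15 rose and 8 fell. Il15ra, which presents IL-15, changed by at least 7.07, Fas by 3.47 and Il4ra by 3.29. Il6ra and Il6st, the chains of the IL-6 receptor, changed by −3.25 and −1.90, and the TGF-β receptor Tgfbr1 by −2.47. Csf1r, the receptor for M-CSF, gave 17298 and 15334 at 0 h and 12869.7 and 13348 at 5 h and was not called (0.25, limma adjusted p = 0.142), with −0.31 at the deposited scale. Of the chemokine and chemoattractant receptors 6 of 11 rose, 3 fell and 2 were not called. Among the 9 above an array median at 0 h 4 rose and 3 fell, and 1 other passed the filter only through its 5 h signal. Ccrl2, an atypical chemokine receptor, changed by 5.12, and the formyl peptide receptor Fpr2 by 4.04. Ccr2, the receptor that draws monocytes to CCL2, changed by −3.09. Cx3cr1, the fractalkine receptor, gave 102 and 162 at 0 h and 44.96 and 11.6 at 5 h and was not called (limma adjusted p = 0.0568), although several alternatives called it lower.

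Inhibitors of signalling and immediate early genes were mostly higher, beside 32.8% rises and 33.3% falls over all genes. Of the feedback inhibitors of cytokine and Toll signalling 19 of 26 rose, 3 fell and 4 were not called (median 1.08). Socs1, an inhibitor of JAK kinases, changed by at least 7.05, and Usp18, which limits interferon receptor signalling, by 5.49, whereas the phosphatase Ptpn22 changed by −3.30. Of the immediate early transcription factors 28 of 42 rose, 4 fell and 10 were not called (median 1.40). Mxd1, a partner of MAX, changed by at least 6.90, Batf2 by 5.01 and Gadd45b by 4.74. Zfp36l2 and Zfp36l1, RNA-binding proteins of the tristetraprolin family, changed by −3.75 and −2.56. Of the MAP kinases and dual-specificity phosphatases 10 of 23 rose, 6 fell and 7 were not called (median 0.29, but −0.27 under the deposited scale). Among the 18 above an array median at 0 h 7 rose and 5 fell. The phosphatases moved both ways, with Dusp2 at least 8.06, Dusp1 at 5.23 and Dusp16 at 4.77, but Dusp6 at −2.83 and Dusp3 at −2.61. Mapk14, the kinase p38α, changed by −2.47.

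Every measured antiviral effector and interferon-stimulated gene rose. The count was 51 of 51 (median 3.22), of 71 genes in that list, and 10 of 10 for the interferon-inducible GTPases (median 4.14), of 17 in that list. Of all 7508 genes 32.8% rose. Among the 51, 46 were above an array median without LPS, and 3 only at 5 h, which entered through their 5 h signal. Among the 10 GTPases, 9 were above an array median without LPS, and 1 entered only through its 5 h signal. Mx2, a GTPase that blocks viruses, gave 17.4 and 58.2 at 0 h and 3204 and 3370.4 at 5 h, a change of at least 7.09 (SE 0.37, limma adjusted p = 0.000429). Ifit1, which binds viral RNA, gave 698 and 964 at 0 h and 18718 and 16228 at 5 h, a change of 4.97 (SE 0.18, limma adjusted p = 0.000284). Iigp1, a GTPase that attacks vacuoles holding pathogens, gave 188 and 292 at 0 h and 11968 and 13252 at 5 h, a change of 6.31 (SE 0.20, limma adjusted p = 0.000260). These signals did not overlap between 0 h and 5 h. Slfn4 changed by at least 7.96, Oasl1 by 6.24, Gbp6 by 5.86, Gbp3 by 5.11 and Gbp2 by 4.83. Of the interferon and STAT transcription factors 16 of 20 rose, 1 fell and 3 were not called (median 2.33). Stat5a changed by 4.15 and Nmi, which binds STAT proteins, by 3.66, whereas Irf3 was not called (−0.34) and Stat6, the IL-4 signal transducer, changed by −0.63.

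The promoters of these genes can be set beside their changes. The windows run from 250 bases before to 50 bases after the RefSeq start of a gene (build GRCm38.p6, sequences from RefSeq), and 4 that hold the searched letters are shown, 1 each of a cytokine, a chemokine, an antiviral effector and a GTPase. The letters searched on both strands were GGANTTNCC, called κB-like, and GAAANNGAA, called ISRE-like after the interferon-stimulated response element. Capitals mark the matches. The window of Il6 (chr5:30012864-30013163, plus strand) holds 1 κB-like match, 43 bases before the start. That of Cxcl10 (chr5:92348840-92349139, minus strand) holds 2 κB-like matches, 158 and 102 bases before the start, and 1 ISRE-like match 213 bases before it. That of Ifit1 (chr19:34640639-34640938, plus strand) holds ISRE-like matches 109, 103 and 84 bases before the start, the first overlapping the second. That of Gbp2 (chr3:142620413-142620712, plus strand) holds 1 ISRE-like match 58 bases before the start.
Il6: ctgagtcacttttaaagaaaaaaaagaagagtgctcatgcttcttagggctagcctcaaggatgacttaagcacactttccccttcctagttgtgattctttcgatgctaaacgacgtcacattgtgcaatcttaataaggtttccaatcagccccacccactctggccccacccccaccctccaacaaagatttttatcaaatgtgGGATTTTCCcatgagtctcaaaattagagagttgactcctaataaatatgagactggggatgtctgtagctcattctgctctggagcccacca
Cxcl10: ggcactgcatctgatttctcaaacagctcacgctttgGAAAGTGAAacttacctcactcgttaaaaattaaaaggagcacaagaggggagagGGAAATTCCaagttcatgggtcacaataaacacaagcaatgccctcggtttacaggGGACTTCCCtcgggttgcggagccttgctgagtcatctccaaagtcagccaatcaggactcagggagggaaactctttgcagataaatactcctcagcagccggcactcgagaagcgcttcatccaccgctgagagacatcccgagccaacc
Ifit1: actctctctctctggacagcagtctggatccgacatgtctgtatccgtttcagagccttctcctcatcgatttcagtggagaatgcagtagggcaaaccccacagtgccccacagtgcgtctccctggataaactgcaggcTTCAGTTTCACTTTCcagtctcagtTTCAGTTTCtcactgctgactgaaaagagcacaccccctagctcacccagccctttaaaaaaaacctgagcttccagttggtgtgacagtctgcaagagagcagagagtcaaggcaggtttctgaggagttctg
Gbp2: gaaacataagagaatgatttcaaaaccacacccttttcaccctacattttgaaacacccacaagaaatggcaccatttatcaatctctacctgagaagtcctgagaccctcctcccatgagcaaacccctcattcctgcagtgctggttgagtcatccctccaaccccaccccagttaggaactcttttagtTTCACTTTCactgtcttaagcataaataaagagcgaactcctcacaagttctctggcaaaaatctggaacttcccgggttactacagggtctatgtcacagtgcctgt

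The letters were unevenly spread over the changed genes. A promoter window was matched for 6192 of the 7508 genes. ISRE-like letters stood in 10.5% of the 1077 windows of genes that rose 2-fold in both genotypes, in 4.70% of the 1042 windows of genes that fell and in 7.28% of all 6192. κB-like letters stood in 6.69%, 2.78% and 4.2%. Among all 27025 RefSeq windows the shares were 8.57% and 3.91%. ISRE-like letters stood in 17 of 40 windows of the antiviral list (42.5%) and 6 of 7 of the GTPases (85.7%), and κB-like letters in 7 of 19 of the NF-κB list (36.8%). The letters did not follow the changes in every list, since ISRE-like letters also stood in 7 of 36 windows of the cytoplasmic ribosomal protein genes (19.4%), most of them not called, and κB-like letters in 0 of 19 windows of the feedback inhibitors. Windows with 4 or fewer CpG made up 12.4% of those of genes that rose, 5.85% of those that fell and 7.04% of all. A match of letters is a description and no measurement of binding.

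Most measured genes of antigen presentation by MHC class I and of the proteasome rose relative to the median gene. Over all genes 32.8% rose and 33.3% fell. Of the class I and immunoproteasome genes 15 of 18 rose, 0 fell and 3 were not called (median 1.22). The peptide transporter genes Tap1 and Tap2 changed by 3.50 and 2.88, and the immunoproteasome subunit Psmb10 by 2.19. The heavy chain gene H2-K1 was not called (0.21). Of the constitutive proteasome genes 21 of 34 rose, 0 fell and 13 were not called (median 0.67, 0.11 at the deposited scale and 0.02 after quantile normalization), with Psma6 at 1.91 and Psma5 at 1.76. Of the class II and dendritic cell genes 8 of 13 rose, 1 fell and 4 were not called (median 0.47, but −0.09 under the deposited scale and −0.02 under quantile normalization). Of the 10 above an array median at 0 h 5 rose and 1 fell, and the other 3 passed the filter only through their 5 h signal. Fscn1, which bundles actin in mature dendritic cells, gave 49.7 and 117 at 0 h and 1546 and 1507 at 5 h, a change of 4.88 (SE 0.36, limma adjusted p = 0.000883), and Ccr7, which guides cells to lymph nodes, changed by at least 2.58. At 0 h Ccr7 lay below both array medians, and Fscn1 lay below that of the wild-type array. In the other direction, H2-DMa gave 1248 and 1365 at 0 h and 451 and 433 at 5 h. H2-Eb1 was not called (0.02). Of the costimulation and checkpoint ligands 16 of 19 rose, 1 fell and 2 were not called (median 2.61), and of the 15 above an array median at 0 h 12 rose and 1 fell. Tnfsf9, the 4-1BB ligand, changed by 6.07 and Slamf1 by 5.68, whereas Vsir, the checkpoint protein VISTA, changed by −2.75.

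Genes of secreted defence proteins and effector enzymes moved both ways, with more rises than falls outside the prostaglandin pathway. Over all genes 32.8% rose and 33.3% fell. Of the acute phase and secreted antimicrobial genes 17 of 25 rose, 3 fell and 5 were not called (median 2.30). Of the 17 above an array median at 0 h 10 rose and 3 fell, and 4 others passed the filter only through their 5 h signal. Ptx3, a soluble pattern recognition protein, gave 30.8 and 34.4 at 0 h and 2078 and 1836 at 5 h, a change of 6.47 (SE 0.16, limma adjusted p = 0.000252). Cfb, complement factor B, gave 40.5 and 32.3 at 0 h and 3355 and 2474 at 5 h, a change of 6.88 (SE 0.29, limma adjusted p = 0.000323). Acod1, which makes itaconate, gave 748 and 405 at 0 h and 15679 and 12390.4 at 5 h, a change of 5.22 (SE 0.24, limma adjusted p = 0.000361). The 5 h signals of these 3 genes were all above the 0 h signals. Of the complement genes 7 of 12 rose, 0 fell and 5 were not called (median 0.45, but −0.11 under the deposited scale and −0.14 under quantile normalization), and C1qa was not called (0.19). Of the nitric oxide, arginine, biopterin and itaconate genes 14 of 21 rose, 5 fell and 2 were not called (median 0.75), and of the 16 above an array median at 0 h 10 rose and 5 fell. Gch1, the rate-limiting enzyme of tetrahydrobiopterin synthesis, changed by 5.02 and the arginine transporter Slc7a2 by at least 5.72, whereas Pts and Spr, later enzymes of tetrahydrobiopterin synthesis, changed by −1.20 and −0.58. In the prostaglandin and leukotriene pathway 7 of 17 rose, 8 fell and 2 were not called (median −0.32). Among the 14 above an array median at 0 h 4 rose and 8 fell. Pla2g4a, which releases arachidonic acid, changed by 4.78, whereas Hpgd, which degrades prostaglandins, changed by −2.82 and the prostaglandin E2 receptor Ptger2 by −2.72. Among iron genes, the importer Slc11a2 changed by 2.99 and Cp, ceruloplasmin, by 5.26, whereas Hfe changed by −2.14. In that list 10 of 18 genes rose and 5 fell, and of its 14 above an array median at 0 h 8 rose and 4 fell. In the antioxidant list 13 of 31 rose, 10 fell and 8 were not called (median 0.02, but −0.54 under the deposited scale and −0.44 under quantile normalization), with the metallothionein Mt2 at 3.92, the cystine transporter Slc7a11 at 3.99, Sod2 at 2.92 and Gclc, the first enzyme of glutathione synthesis, at −1.43.

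Glycolysis genes mostly rose, and TCA cycle genes fell more often than they rose, beside 32.8% rises and 33.3% falls over all genes. Of the glycolysis and hypoxia genes 22 of 30 rose, 3 fell and 5 were not called (median 1.43). Pfkfb3, which makes the activator of phosphofructokinase, gave 195 and 193 at 0 h and 6256 and 8972 at 5 h, a change of 5.83 (SE 0.25, limma adjusted p = 0.000330). Slc2a1, the glucose transporter GLUT1, gave 567 and 581 at 0 h and 4837 and 5275 at 5 h, a change of 3.70 (SE 0.15, limma adjusted p = 0.000308). Slc2a3, the transporter GLUT3, gave 235 and 277 at 0 h and 17.6 and 30.7 at 5 h, a change of −2.89 (SE 0.23, limma adjusted p = 0.00104). The 2 glucose transporters thus moved in opposite directions on both pairs of arrays. The lactate transporter Slc16a1 changed by 3.42, Vegfa by −1.71, and Aldoa was not called (0.10). Of the TCA cycle genes 3 of 28 rose, 13 fell and 12 were not called (median −0.38). The steepest falls in that list, Idh1 at −2.15 and Got1 at −2.31, were of cytosolic enzymes that are not steps of the cycle itself. Fumarase Fh1 changed by −1.21 and Idh3g by −1.28, whereas Dld changed by 1.18. Of the respiratory chain genes 10 of 64 rose, 12 fell and 42 were not called (median −0.03, but 0.17 under array-median scaling), with cytochrome c, Cycs, at 2.81.

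Fatty acid and nucleotide genes held more falls than rises, beside 33.3% falls over all genes. Of the fatty acid genes 9 of 34 rose, 17 fell and 8 were not called (median −0.29). Fads1 and Scd2, both fatty acid desaturases, changed by −4.28 and −4.19, and Acadm, of fatty acid oxidation, by −2.15. Hilpda, a lipid droplet protein, changed by 3.09 and Dgat2, of triglyceride synthesis, by 2.51. Of the cholesterol genes 12 of 34 rose, 9 fell and 13 were not called (median −0.10, but 0.10 under array-median scaling). Ch25h, cholesterol 25-hydroxylase, gave 62.98 and 55.6 at 0 h and 2410.3 and 2352 at 5 h, a change of 5.89 (SE 0.21, limma adjusted p = 0.000278). The synthesis enzymes differed, with Idi1 at 1.89, Hmgcs1 at 1.70 and Cyp51 at 1.37, but Dhcr7 at −2.23 and Mvd at −1.42. Of the pentose phosphate and nucleotide genes 7 of 31 rose, 15 fell and 9 were not called (median −0.74). Upp1, uridine phosphorylase, gave 11.2 and 14.8 at 0 h and 4594 and 7095 at 5 h, a change of at least 8.59 (SE 0.22, limma adjusted p = 0.000252), and the interferon-induced kinase Cmpk2 changed by 5.66. Cad, which starts pyrimidine synthesis, changed by −1.65, Rrm2 of ribonucleotide reductase by at most −2.54 and thymidine kinase Tk1 by at most −2.32.

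Genes of cell division and DNA replication fell more often than they rose. Of the cell cycle and mitosis genes 9 of 40 rose, 21 fell and 10 were not called (median −1.22), beside 33.3% falls over all genes, and of the DNA replication and repair genes 3 of 45 rose, 26 fell and 16 were not called (median −0.86). Cenpa, the centromere histone, gave 982 and 963 at 0 h and 68.8 and 48.2 at 5 h, a change of −3.52 (SE 0.16, limma adjusted p = 0.000361). Mcm7, of the replicative helicase, gave 527 and 490.2 at 0 h and 32.9 and 50.6 at 5 h, a change of −3.08 (SE 0.31, limma adjusted p = 0.00186). Xpc, a DNA damage sensor, gave 294 and 269 at 0 h and 15.7 and 29.2 at 5 h, a change of −3.15 (SE 0.45, limma adjusted p = 0.00475). For all 3 both 5 h signals were below both 0 h signals. Aurkb changed by at most −2.56, Cdc25b by −2.71 and Chek2 by −2.56. Against this direction Ccnd2, cyclin D2, gave 151 and 159 at 0 h and 7919 and 7313 at 5 h, a change of 6.18 (SE 0.22, limma adjusted p = 0.000278), and the inhibitor Cdkn1a changed by 2.45 and Pcna by 0.84. In the p53 and sestrin list 8 of 19 rose, 10 fell and 1 was not called (median −0.55), with Mdm2 at 2.96, Zmat3 at −4.11 and Sesn2 at −2.99. Of the apoptosis and inflammasome genes 16 of 25 rose, 4 fell and 5 were not called (median 0.80). Casp4, the sensor of intracellular LPS, changed by 4.27, Aim2, a DNA sensor, by 4.22 and Casp1 by 3.25, whereas the initiator caspase Casp9 changed by −2.40 and the death-promoting Bcl2l11 by −1.79.

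Growth control, clock and autophagy genes held more falls than rises, beside 33.3% falls and 32.8% rises over all genes. Of the FOXO, PI3K and mTOR genes 9 of 28 rose, 14 fell and 5 were not called (median −0.49). Deptor, an mTOR inhibitor, gave 535 and 705 at 0 h and 37.4 and 15.3 at 5 h, a change of −4.12 (SE 0.45, limma adjusted p = 0.00237), and Foxo3 changed by −2.18, whereas the adaptor Pik3ap1 changed by 3.03 and Rheb, an mTORC1 activator, by 1.40. Of the clock genes 2 of 14 rose, 7 fell and 5 were not called (median −0.80). Tef, a relative of Dbp, changed by −3.15 and Nr1d1 by at most −1.64, while Nfil3, which binds the same sites as a repressor, changed by 4.14. Of the autophagy genes 8 of 27 rose, 16 fell and 3 were not called (median −0.53). The kinases Ulk1 and Ulk2 changed by −2.49 and −2.82 and the receptor Nbr1 by −3.06, whereas the receptor Tax1bp1 changed by 2.29. Of the lysosome genes 11 of 53 rose, 20 fell and 22 were not called (median −0.22), a share of falls of 37.7% that is near that of all genes. The lysosomal transcription factor Tfeb changed by −2.48, the sulfatase Sgsh by −3.83 and Galc by −3.15, while Lamp2 changed by 1.31 and Psap was not called (0.32).

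**Figure D4:**
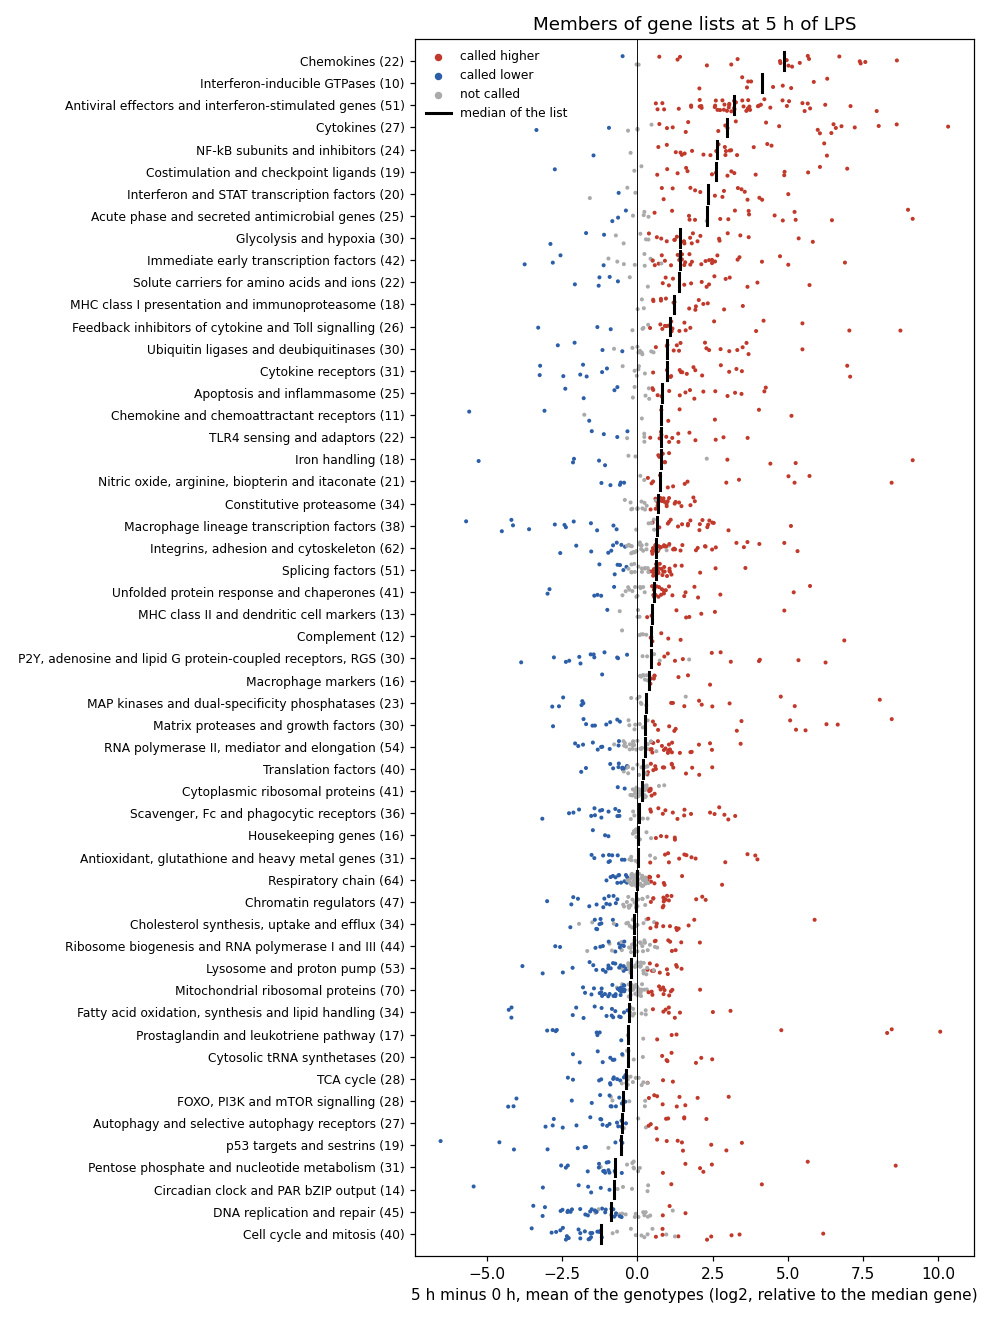
Change from 0 h to 5 h (x axis, log2 relative to the median gene, mean of the genotypes) of the measured members of each gene list with at least 10 measured members (rows, number measured in brackets), 1 point per gene coloured by its call, with a black bar at the list's median. Medians run from −1.22 for cell cycle and mitosis to 4.86 for chemokines, and all points of the antiviral and GTPase lists lie above 0.

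Most cytoplasmic ribosomal protein genes were not called, whereas 66.1% of all genes were called, 32.8% as rises and 33.3% as falls. Of the cytoplasmic ribosomal protein genes 6 of 41 rose, 2 fell and 33 were not called (median 0.14, but −0.42 under the deposited scale and −0.46 under quantile normalization), and of the mitochondrial ones 12 of 70 rose, 29 fell and 29 were not called (median −0.24). Of the translation factors 15 of 40 rose, 10 fell and 15 were not called (median 0.19, but −0.37 under the deposited scale and −0.46 under quantile normalization), with Eif1a at 2.49, Eif6 at 2.05 and Eif4b at −1.71. Of the cytosolic tRNA synthetases 7 of 20 rose, 8 fell and 5 were not called (median −0.32). Wars, the interferon-induced synthetase for tryptophan, changed by 2.48 and Rars by 1.95, whereas Iars changed by −2.15 and Nars by −1.92. Of the unfolded protein response and chaperone genes 23 of 41 rose, 6 fell and 12 were not called (median 0.55, but −0.01 under the deposited scale). The inducible HSP70 genes Hspa1a and Hspa1b, near-identical copies whose probe sets may share RNA, changed by 5.20 and 5.74, whereas Eif2ak3, the endoplasmic reticulum stress kinase PERK, changed by −2.93 and Herpud1 by −1.44. In ribosome biogenesis 8 of 44 rose, 12 fell and 24 were not called (median −0.11, but 0.10 under array-median scaling).

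Splicing factors rose more often than they fell, beside 32.8% rises and 33.3% falls over all genes. Chromatin regulators, with 31.9% rises and 29.8% falls, lay near those shares. Of the splicing factors 32 of 51 rose, 6 fell and 13 were not called (median 0.61, but −0.06 under quantile normalization), with Tra2a at 3.59, Tra2b at 2.60 and Srsf3 at 2.08. Of the RNA polymerase II, mediator and elongation genes 23 of 54 rose, 10 fell and 21 were not called (median 0.24, but −0.32 under the deposited scale). Ell2, an elongation factor, changed by 3.43, and Polr2a, the largest subunit of the polymerase, gave 696 and 718 at 0 h and 163 and 180.0 at 5 h, a change of −1.48 (SE 0.12, limma adjusted p = 0.00108). Of the chromatin regulators 15 of 47 rose, 14 fell and 18 were not called (median −0.05, but 0.15 under array-median scaling), with the deacetylases Hdac1 at 2.27 and Hdac5 at −3.01. Of the housekeeping genes 5 of 16 rose, 3 fell and 8 were not called (median 0.02, but −0.54 under the deposited scale and −0.68 under quantile normalization), and Actb gave 18400.3 and 16383 at 0 h and 16917 and 12404 at 5 h and was not called (0.30), with −0.26 at the deposited scale. Of the ubiquitin ligases and deubiquitinases 17 of 30 rose, 4 fell and 9 were not called (median 0.99). Peli1, a ligase of Toll-like receptor signalling, changed by 3.69, while its relative Peli2 changed by at most −2.65.

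Transcription factors and surface proteins of macrophages changed in both directions, beside 32.8% rises and 33.3% falls over all genes. Of the macrophage lineage transcription factors 20 of 38 rose, 13 fell and 5 were not called (median 0.64), and of the 35 above an array median at 0 h 17 rose and 13 fell. Gfi1, a repressor of myeloid genes, changed by at least 5.10 and Cebpd by 3.03, whereas Mef2d changed by −4.14 and the retinoid X receptor Rxra by at most −4.19. Of the scavenger, Fc and phagocytic receptors 16 of 36 rose, 15 fell and 5 were not called (median 0.04, but −0.52 under the deposited scale and −0.46 under quantile normalization), and of the 34 above an array median at 0 h 14 rose and 15 fell. Clec4e, the lectin Mincle, changed by 3.25, Marco by 3.02 and Msr1 by 2.72, whereas Cd300a, an inhibitory receptor, changed by −3.16 and the haemoglobin receptor Cd163 by at most −2.28. Of the G protein-coupled receptors and RGS genes 12 of 30 rose, 13 fell and 5 were not called (median 0.44, but −0.12 under the deposited scale). Among the 24 above an array median at 0 h 8 rose and 13 fell. Hcar2, the nicotinic acid receptor, changed by 6.26 and Gpr84 by 5.35, while the cannabinoid receptor Cnr2 changed by at most −3.87 and the acid sensor Gpr65 by −2.78. Of the adhesion and cytoskeleton genes 33 of 62 rose, 9 fell and 20 were not called (median 0.61, but −0.02 under quantile normalization), with Vcam1 at least 5.32, Itga5 at 3.66, Rhou at 4.05, Rhob at −2.57 and Itga6 at −2.04. Of the matrix protease and growth factor genes 14 of 30 rose, 9 fell and 7 were not called (median 0.26, but −0.30 under the deposited scale and −0.06 under quantile normalization). Of the 21 above an array median at 0 h 6 rose and 9 fell, so the balance of rises came from members measured through their LPS signal. Mmp13, a collagenase, changed by 6.66 and Mmp14 by 6.29, whereas thrombomodulin, Thbd, changed by at most −2.81. Of the solute carriers 15 of 22 rose, 5 fell and 2 were not called (median 1.37), with the zinc transporter Slc39a14 at 3.66 and the glutamine transporter Slc1a5 at −2.08.

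Some markers that other cell types also carry were well measured, with 4 of 14 neutrophil markers and 9 of 17 class II and dendritic cell markers above both 0 h medians. The summed signal of the 12 B cell markers on the array was 3875 and 4060 at 0 h and 609 and 566 at 5 h. Ighm, the μ heavy chain, gave 3371 and 3571 at 0 h and 268 and 304 at 5 h of those sums. Its change was −3.04 (SE 0.11, limma adjusted p = 0.000278). Cd79b gave 119 and 111 at 0 h and 24.9 and 30.4 at 5 h. Cd22 gave 201 and 211 at 0 h and 111 and 74.99 at 5 h. Pax5, a defining B cell factor, gave 6.83 and 6.70 at 0 h and 5.86 and 7.36 at 5 h, under the floor throughout. Of the 4 measured B cell markers 2 fell, 1 rose and 1 was not called. Of the 3 above an array median at 0 h 2 fell and 0 rose. The riser, Vpreb3, gave 67.0 and 11.65 at 0 h and 74.0 and 70.2 at 5 h and passed the filter only through its 5 h signal. The summed signal of the 10 mast cell and basophil markers was 151 and 235 at 0 h and 797 and 982 at 5 h. Hdc, which makes histamine, gave 12.8 and 8.29 at 0 h and 648 and 827 at 5 h of those sums, a change of at least 5.62 (SE 0.15, limma adjusted p = 0.000252), while the defining mast cell receptor Kit stayed at 19.0 or below. The 14 neutrophil markers summed to 4790 and 5481 at 0 h and 5280 and 6542 at 5 h, and of the 6 measured ones 3 rose and 2 fell. Of the 4 above an array median at 0 h 1 rose and 2 fell, and the other 2 passed the filter only through their 5 h signal. S100a8 gave 88.2 and 81.7 at 0 h and 499.96 and 1135 at 5 h, whereas Mmp8 gave 1467 and 2248 at 0 h and 525 and 821 at 5 h and Padi4 gave 205 and 237 at 0 h and 88.3 and 64.9 at 5 h. Csf3r, the G-CSF receptor, gave 1797 and 1824 at 0 h and 3153 and 3543 at 5 h, and S100a9, the partner of S100a8, gave 15.5 and 15.96 at 0 h and 26.2 and 2.83 at 5 h. The part of other cells in these changes was not tested. In RNA from whole cultures, fewer cells of a type and less RNA per cell cannot be told apart.

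The genes changed 2-fold at 5 h were also set beside 1 h. Because they were chosen for their 5 h values, the counts and medians here favour larger changes at 5 h and are a description. The 1 h and the 5 h comparison share the 0 h arrays, so the times were compared by the direct test of 5 h minus 1 h, in which 29.0% of all genes were higher and 30.6% lower at 5 h. Of the 1307 genes that rose 2-fold, 1131 were higher still at 5 h than at 1 h, 32 were lower than at 1 h and 144 did not pass the test. Of the 1249 that fell 2-fold, 1176 were lower still, 2 were higher than at 1 h and 71 did not pass. The median change of the risen genes was 0.40 at 1 h and 1.98 at 5 h, and that of the fallen genes −0.19 and −1.82. At 1 h 18 of the risen genes were called lower and 12 of the fallen genes called higher.

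The order of the genes along the chromosomes was also examined. In the RefSeq gene order (GRCm38.p6), the measured gene that follows one that rose 2-fold had also risen 2-fold in 24.8% of 1302 cases, and the gene after one that fell had fallen in 20.4% of 1245 cases, beside 17.4% and 16.6% over all genes. The longest runs of measured genes that rose held 7 genes, namely Slamf9, Tagln2, Slamf8, Aim2, Ifi209, Ifi204 and Mndal on chromosome 1, and U90926, Naaa, Sdad1, Cxcl9, Cxcl10, Cxcl11 and Nup54 on chromosome 5. Other runs held the Schlafen genes Slfn8, Slfn2, Slfn1, Slfn4 and Slfn3 on chromosome 11, the monocyte chemokines Ccl2, Ccl7, Ccl12 and Ccl8 on the same chromosome, with changes of 5.02 to 7.42, and Psmb9, Tap1, Psmb8 and Tap2 in the MHC on chromosome 17. Related genes in such runs can share probe sequences. The longest runs of genes that fell held 4 genes, 1 of them Cep57l1, Sesn1, Foxo3 and Afg1l on chromosome 10. Run members outside the rule for named genes were named after their values were seen.

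Signal strength limited some values. Of the 1307 genes that rose 2-fold, 176 lay above an array median only at 5 h and so were measured through their rise, and the changes of 110 were bounds. Of the 1249 that fell, 77 lay above a median only at 0 h and the changes of 164 were bounds. Other probe sets of the same gene moved the same way in 550 of 573 risen genes (96.0%) and 425 of 452 fallen genes (94.0%) that had them, while 3 and 4 genes had another probe set at least 2-fold the opposite way. The median SE of a change was 0.14 among risen and 0.15 among fallen genes.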

How the data were processed

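RNA of the 6 arrays was measured as intensity, MAS5 signals on a linear scale that the authors deposited for 22690 probe sets (MAS5 per the submitters' processing notes; its version and scaling target: not given in the sources used here). Of these, 20380 have 1 gene symbol in the platform annotation, 691 have several, 64 are controls and 1555 are unnamed here. Probe sets above the median of at least 1 array were kept, and the brightest represented each gene, leaving 7508 genes. Each LPS array was divided by its median gene's fold from 0 h of the same genotype (0.693 and 0.663 at 5 h), signals under the 25th percentile of all scaled values (21.9) were raised to it, and log2 was taken. Genotype and time were fitted as additive terms with limma 3.58.1 (lmFit, eBayes) in R 4.3.3 on all 6 arrays, which pairs the times by genotype and leaves 2 residual degrees of freedom and a prior of 2.21. A gene at the floor on several arrays has little measured spread, so its SE and p are less certain. Calls needed a Benjamini-Hochberg adjusted p under 0.05 over all genes and the same direction in both genotypes. The fit was tested on simulated data.

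The 60 gene lists and the comparison itself were chosen with earlier results of these data known. Named genes are the 20 highest and 20 lowest among called genes changed 2-fold in both genotypes, ranked by the smaller genotype change, the 4 largest rises and falls and the brightest member not called in each list, 16 genes of general interest and genes moving 2-fold in opposite directions. Gapdh, also chosen, is not analysed here. Alternatives varied the scaling, floor, filter, probe set, arrays, genotype term and variance model.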

Additional observations from a re-analysis of the deposited data

Results flagged for a closer look

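In 3 genes whose brighter array of each pair lay above its array median the 5 h change went in opposite directions in the genotypes by at least 2-fold each way, with 1 array on each side, so the difference was not tested. Slc30a3, a zinc transporter, gave 25.2 and 145 at 0 h and 109 and 23.4 at 5 h, changes of 2.63 in wild type and −2.04 in knockout and a knockout minus wild type difference of −4.67. Hps1, of lysosome-related organelle formation, gave 98.5 and 175 at 0 h and 183 and 26.7 at 5 h, changes of 1.43 and −2.12 and a difference of −3.55. Mad2l1, of the spindle checkpoint, gave 215 and 275 at 0 h and 326 and 77.3 at 5 h, changes of 1.13 and −1.24 and a difference of −2.37. For Slc30a3 the dimmer signal of each pair, and for Hps1 that of the knockout pair, lay near the floor of 21.9 at 0 h and 15.2 or 14.5 at 5 h. Over all 7508 genes this difference had an SD of 0.55, and 9 genes moved 2-fold in opposite directions.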

How the results depend on the processing

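At the deposited scale rises numbered 1463 and falls 4055, since that scale keeps the drop of the median gene. Under the other alternatives that kept all arrays, rises numbered 1975 to 2924 and falls 2008 to 3058. Leaving out 1 array in turn gave 1784 to 2311 rises and 1662 to 2334 falls. Where the array left out was from 0 h or 5 h, the same-direction rule could not be applied, so these calls follow a looser rule. The scaling and floor stayed those of all 6 arrays. The times were paired by genotype, and without this replicate block 2417 genes rose and 2482 fell. Of the 2556 genes changed 2-fold, 2311 (90.4%) were called the same way in all 16 alternatives that tested every one of them, and 0 were called the opposite way in any. The 16 alternatives are not independent, since leaving out the wild-type 1 h array, the knockout 1 h array or both gave the same counts. The deposited and array-median scales shift the changes by less than 2-fold, so under them an opposite call was hardly possible. The filter that asks for a signal above the median on all 6 arrays tested 1649 of the 2556 genes and called 1648. Among 830 values of 51 named genes, 802 kept direction and side of the threshold, 11 lost the call and 11 gained one. The 6 reversals were Actb, with −0.26 at the deposited scale, −0.35 after quantile normalization and −0.33 for the mean of probe sets, and Csf1r, with −0.31, −0.37 and −0.23. Nfkbib lost its call without the replicate block (limma adjusted p = 0.416), without the filter (0.117) and without the wild-type 0 h array (0.0782). Of the 60 list medians, 13 changed sign at the deposited scale, 11 after quantile normalization, 4 under array-median scaling and 6 under the filter on all arrays. Precision is limited by 1 array per genotype and time and, for dim genes, by the floor.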
